A study of Mus musculus with 12 samples.

Results

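The response of testicular somatic cells to dexamethasone (dex) was measured by comparing 3 dex libraries with 3 saline libraries of sorted GFP-negative cells, 6 of the 12 libraries of the series. The libraries were chosen by their labels alone, and every gene with enough counts entered the comparison. All mice were male, carried the Tg(Pou5f1-EGFP)2Mnn transgene, in which regulatory sequence of the germ cell gene Pou5f1 (OCT4) drives green fluorescent protein (GFP), and were collected at postnatal day (PN) 1. Dex was injected at 10 μg per g of body weight, intraperitoneally into the dams at E17.5 and E18.5 (E, embryonic day) and subcutaneously into the pups at PN 0. Controls received saline on the same days. Testes were dissociated and sorted, and cells without GFP were taken as the somatic population. Per the study's methods, a replicate pooled testes from at least 2 litters dosed separately, so a library stands for a pool of animals and not for a single animal. The other 6 libraries, of GFP-positive germ cells, enter the scaling of the printed levels and the germ levels that are named. They also enter a fit of all 12 libraries and a comparison of the dex effect between somatic and germ cells.

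Dex is a synthetic ligand of the glucocorticoid receptor, a nuclear receptor that is held in the cytoplasm by chaperones until it binds hormone. The bound receptor enters the nucleus, raises genes near its binding sites and lowers others, many of them inflammatory genes, by interfering with other transcription factors. In a newborn testis the GFP-negative fraction is a mixture: Sertoli cells, which line the cords and nurse germ cells; peritubular myoid cells, which wrap the cords; fetal Leydig cells, which make androgens; interstitial fibroblast-like stroma; endothelium with its pericytes; macrophages; and blood cells left in the vessels.

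The 6 libraries held between 19012211 and 24718391 counts, and the genes transcribed from the mitochondrial genome took 1.561% to 1.946% of them. Levels are given as CPM, counts scaled to library size by the TMM method over all 12 libraries, and 3 values in a row stand for replicates 1, 2 and 3. Where a gene had no count, as many as 3 could have been missed, a level of 0.132 to 0.17 CPM (counting error only). The first principal component of log2 CPM, with 31.02% of the variance, had all dex libraries on one side and all saline libraries on the other. On the next component, with 20.29%, dex replicate 2 lay at -39.67 and the other dex libraries at 24.52 and 41.01. No pair of replicates was a copy, since the chi-square per degree of freedom between replicates was 9.292 or more.

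Markers of the expected somatic cells were present. Amh, the Sertoli cell hormone that removes the female ducts, stood at 1788, 1641 and 1911 CPM in the saline libraries and 1939.7, 1628 and 1851 CPM in the dex libraries. Sox9, the transcription factor that sets Sertoli cell fate, stood at 212, 232 and 189 CPM in saline and 221, 195 and 211 CPM in dex. Acta2, the smooth muscle actin of peritubular cells, and Star, which moves cholesterol into the mitochondria of steroid-making cells, were present in every library as well. The defining germ cell genes Ddx4 and Dazl averaged 1.38 and 1.42 CPM in saline and 0.605 and 0.717 CPM in dex somatic cells, against 598 and 1176 CPM in saline germ cells. Among lists for other cells that a dissected testis can carry, mesothelium summed to between 1.41 and 13.6 CPM in saline, and mesonephric duct and rete to between 6.24 and 12.4 CPM. Schwann cell genes summed to between 104 and 108 CPM in saline and between 108 and 131 CPM in dex, side by side but without overlap, and their part in the other results was not tested. The adrenal cortex list summed to between 15.6 and 17.4 CPM in saline and between 13.2 and 17.1 CPM in dex, nearly all of it Akr1b7, while Cyp21a1, the defining enzyme of that tissue, averaged 0.363 CPM in saline and 1.21 CPM in dex and was not called (edgeR adjusted p 0.237).

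Genes whose transcripts hold ribosomal RNA sequence moved with the treatment. This group was picked after values were seen, and all 6 of its genes with counts were called higher. They took 0.705%, 0.86% and 0.792% of the counts in the dex libraries and 0.444%, 0.52% and 0.324% in the saline libraries, without overlap. Among them mt-Rnr1, the small mitochondrial ribosomal RNA, went from 931, 1309.9 and 513 CPM in saline to 1953, 2757 and 2154 CPM in dex. Libraries were made from poly(A)-selected RNA, in which ribosomal RNA is a remainder of the selection, and its part in the other results was not tested. The count of called genes was 656 when these genes were left out before scaling, an alternative chosen after seeing the data.

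The comparison of dex with saline asks which transcripts of the whole somatic population respond to the hormone, which serves in the study as a counterpart to the germ cells. edgeR tested 16766 genes and called 655 at an adjusted p of 0.05 or less (3.91% of those tested). Of these, 459 were higher with dex (2.74%) and 196 lower (1.17%), and these are the shares against which the percentages of each gene list are to be read. Most changes were small: the median size among called genes was 0.64 on the log2 scale, 168 genes changed by at least 2-fold (113 higher and 55 lower), and 288 changed by less than 1.5-fold. Dex and saline libraries were fully separate for 646 of the calls, against 21.3% of the genes tested. The median log2 fold change over all genes was -0.0066. The excess of rises depended on scaling: 70.1% of called genes were higher with TMM, 53.6% with library totals, which moved the median over all genes to -0.0658, and 52.3% when all 12 libraries shared a fit. Of the 655 calls, 260 held in each of 6 fits that left out 1 library in turn (221 higher and 39 lower), and none changed sign. Saline replicate 3, saline replicate 1 and dex replicate 2 weighed most: without them 354, 383 and 398 genes were called. On the authors' FPKM values, log2(FPKM + 0.1), limma called 251 genes, 217 of them higher.

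**Figure D1:**
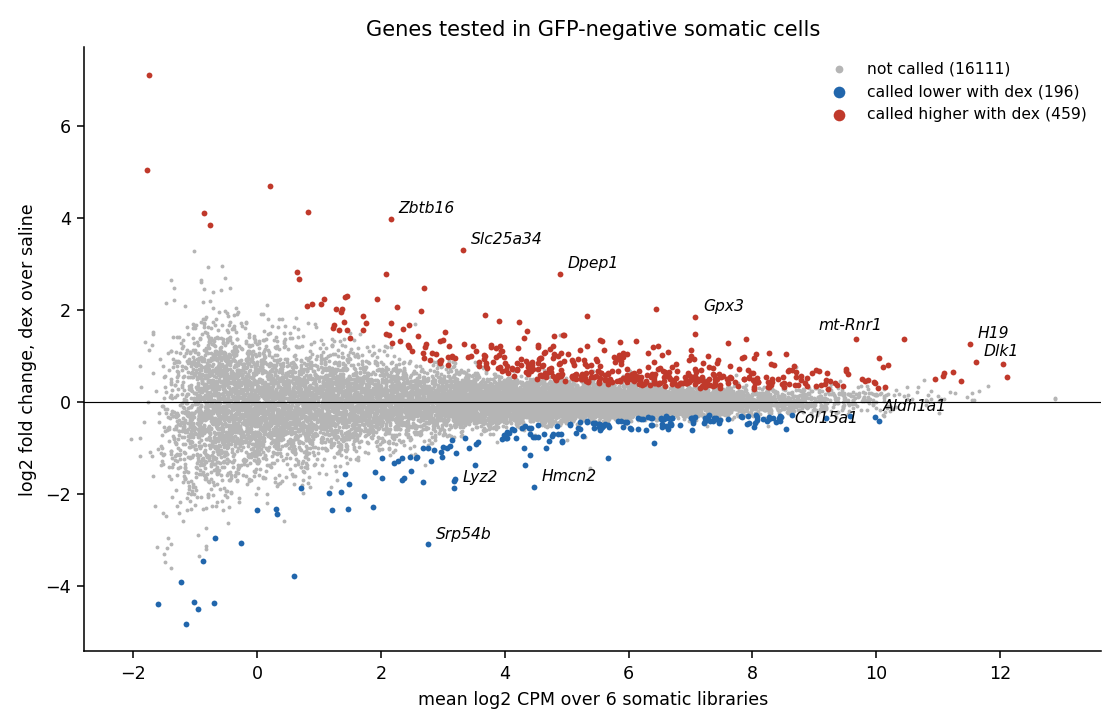
Each point is 1 of 16766 genes in the somatic comparison, with the mean log2 CPM over 6 libraries on the x axis and the log2 ratio of dex to saline on the y axis. Red points are the 459 genes called higher and blue points the 196 called lower, and called rises reach from rare transcripts such as Zbtb16 to very abundant ones such as H19 and Dlk1.

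Most listed genes known to respond to glucocorticoid in many tissues rose. Of 24 listed genes, 21 were tested and 14 were called, all higher (66.7% of those tested against 2.74% of all genes), and the median of the list was 1.01. The list was written with results of these data known, as were all others. Zbtb16, a zinc finger transcription factor that spermatogonia also use and that is a sensitive glucocorticoid target, stood at 0.558, 2.24 and 0.777 CPM in saline and 20.1, 23.2 and 12.8 CPM in dex. The groups were far apart, with a log2 fold change of 3.98 ± 0.37 (SE; edgeR adjusted p 1.6e-05). Its level in saline germ cells was 342 CPM.

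Tsc22d3, also called GILZ, a leucine zipper protein through which glucocorticoids damp inflammation, stood at 38.3, 37.5 and 45.8 CPM in saline and 81.3, 85.5 and 77.02 CPM in dex. Cebpd, a transcription factor of the acute phase and of fat cell formation (ENSMUSG00000071637, chromosome 16, 15887286 to 15891031 in mm10), stood at 50.01, 24.4 and 61.8 CPM in saline and 213, 187 and 146 CPM in dex, a log2 fold change of 2.02 ± 0.24 (SE; edgeR adjusted p 0.000165). Its relative Cebpb rose by 1.30 and the metallothionein Mt1, which binds zinc, by 1.45. Errfi1, an inhibitor of the EGF receptor, went from 88.1 ± 19.3 to 191 ± 24.4 CPM, and Angptl4, a secreted inhibitor of lipoprotein lipase, from 69.5 ± 10.5 to 144 ± 25.2 CPM (mean ± SD, n = 3). Every dex library was above every saline library for each of these genes. Klf9, a transcription factor that the receptor switches on directly, went from 4.62, 6.499 and 8.79 CPM in saline to 17.4, 15.7 and 13.9 CPM in dex. Of the 14 calls, 12 held in each fit without 1 library. Pdk4 and Fam107a did not, with adjusted p-values up to 0.104 without dex somatic replicate 2 and up to 0.126 without dex somatic replicate 3.

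Fkbp5, a co-chaperone of the receptor that rises with glucocorticoid in many tissues, stood at 258, 291 and 266 CPM in saline and 323, 287 and 288 CPM in dex. Its groups overlapped, and it was not called (log2 fold change 0.17 ± 0.076, edgeR adjusted p 0.2895). The receptor gene Nr3c1 stood at 31.3, 45.98 and 32.7 CPM in saline and 35.2, 33.5 and 28.5 CPM in dex, and it too was not called (-0.15 ± 0.14, adjusted p 0.681). Of the 18 genes in the list of the receptor, its chaperones and the enzymes that make or remove its ligand, 2 were called, both higher (11.1%), at a median of 0.067. They belong to a pair of enzyme systems with opposite roles: Hsd11b2, which inactivates natural glucocorticoid, went from 38.5 ± 6.13 to 58.2 ± 4.66 CPM (log2 fold change 0.63, adjusted p 0.00828), and H6pd, which supplies the cofactor for reactivating it, from 52.1 ± 8.01 to 76.3 ± 7.95 CPM (0.58, adjusted p 0.00768). The H6pd call was lost in 2 of the 6 fits without 1 library, up to an adjusted p of 0.0509 without saline somatic replicate 3.

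Clock genes split. Of 19 tested, 2 rose (10.5%), 3 fell (15.8%) and 14 did not pass, with a median of -0.018. Per1, a repressor of the clock with glucocorticoid receptor sites at its gene, stood at 138, 124 and 127 CPM in saline and 218, 207 and 210.03 CPM in dex, and Per2 went from 20.9 ± 1.93 to 34.1 ± 1.93 CPM. Per3 fell (log2 fold change -0.62), as did Tef, an output transcription factor of the clock (-0.55), and Nr1d2, which encodes REV-ERB beta (-0.70). The Per3 call was lost in 5 of the 6 fits without 1 library, up to an adjusted p of 0.0789 without saline somatic replicate 3. Per the study's methods, pups of both groups were collected late in the morning.

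The windows around start sites were searched for the letters that the receptor prefers. The palindrome GNACANNNTGTNC, which reads the same on both strands and in which N is any base, was sought in RefSeq windows of 300 bases, 250 before and 50 after each start site (build GRCm38.p6). Of 459 genes called higher, 323 had a window and 7 of these held the palindrome (2.17%). It was in 0 of 139 windowed genes called lower, in 0.425% of 11527 tested genes with a window and in 0.475% of all 32851 windows. Its inner part alone, ACANNNTGT, which lies within the palindrome, was in 7.43% of the genes called higher, 6.47% of those called lower and 5.51% of tested genes. A match of letters is a description of the window and not a bound site, and most binding sites of the receptor lie outside such windows.

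The windows of 3 genes that rose and held the palindrome are printed to show where it lies, with its 13 bases in capitals. Fam107a, which encodes an actin-binding protein induced by stress and glucocorticoid, stood at 0.507, 0.703 and 1.85 CPM in saline and 5.55, 2.43 and 5.29 CPM in dex, low but without overlap. Mt1 went from 19.2 ± 5.797 to 51.98 ± 8.08 CPM. Txnip, which binds thioredoxin and lowers glucose uptake, went from 262 ± 45.5 to 534 ± 74.8 CPM. The Fam107a window is chr14:8309730-8310029 on the minus strand, the Mt1 window chr8:94178839-94179138 on the plus strand and the Txnip window chr3:96557707-96558006 on the plus strand, each 5′ to 3′ along the gene.
Fam107a: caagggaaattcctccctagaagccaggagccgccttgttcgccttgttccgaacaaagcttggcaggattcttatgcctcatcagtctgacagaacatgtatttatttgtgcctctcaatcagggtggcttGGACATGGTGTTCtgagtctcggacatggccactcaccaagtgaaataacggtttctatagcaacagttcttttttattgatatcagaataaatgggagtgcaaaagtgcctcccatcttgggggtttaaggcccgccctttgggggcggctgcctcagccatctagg
Mt1: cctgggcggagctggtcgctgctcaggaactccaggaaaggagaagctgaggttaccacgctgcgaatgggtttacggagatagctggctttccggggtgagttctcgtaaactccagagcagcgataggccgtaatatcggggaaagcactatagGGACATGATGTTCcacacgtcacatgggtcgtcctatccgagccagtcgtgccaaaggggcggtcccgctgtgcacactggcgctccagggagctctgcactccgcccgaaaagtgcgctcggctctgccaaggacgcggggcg
Txnip: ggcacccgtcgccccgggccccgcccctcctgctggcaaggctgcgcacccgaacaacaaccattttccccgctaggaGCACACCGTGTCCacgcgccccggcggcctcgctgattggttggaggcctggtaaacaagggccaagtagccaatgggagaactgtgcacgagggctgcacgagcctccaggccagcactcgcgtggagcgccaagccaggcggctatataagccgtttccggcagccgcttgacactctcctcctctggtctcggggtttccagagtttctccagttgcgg
The match was centred -112 bases from the start site in Fam107a, -88 in Mt1 and -166 in Txnip. The other 4 genes are outside the naming rule and were picked for the match: Map3k6, a stress kinase (log2 fold change 1.21), Abcb5, a membrane transporter (0.83), Slc10a6, a transporter of sulfated steroids (1.55), and Psme2b (0.79). The calls of Slc10a6 and Psme2b were lost without single libraries (adjusted p 0.144 without dex somatic replicate 1 and 0.231 without dex somatic replicate 3). Their matches follow in the same form.
Map3k6: GCACAGGCTGTTC
Abcb5: GAACACTGTGTGC
Slc10a6: GAACACGATGTGC
Psme2b: GAACAGTCTGTGC

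Zbtb16, Slc25a34 and Tmem82 led the rises among well-expressed genes. The genes of this paragraph and the next are the top 12 protein-coding rises by fold among 574 called genes that had a mean log2 CPM of at least 2 and groups that did not overlap. Slc25a34, a member of the mitochondrial carrier family, stood at 3.4998, 3.64 and 2.48 CPM in saline and 38.5, 31.3 and 24.5 CPM in dex (log2 fold change 3.32 ± 0.20, edgeR adjusted p 3.1e-07). Its neighbor Tmem82, a membrane protein of little known function, stood at 2.08, 0.747 and 2.09 CPM in saline and 11.5, 11.7 and 10.3 CPM in dex, and 23.7% of its exon bases also lie in another annotated gene. Dpep1, a membrane dipeptidase that cleaves leukotriene D4 and breakdown products of glutathione, stood at 13.7, 11.2 and 9.57 CPM in saline and 76.9, 86.99 and 68.2 CPM in dex. Gpx3, the secreted glutathione peroxidase (ENSMUSG00000018339, chromosome 11, 54902453 to 54910377), had the smallest p-value of all genes: its levels were 73.2, 72.9 and 69.3 CPM in saline and 253, 269 and 244 CPM in dex, a log2 fold change of 1.86 ± 0.080 (adjusted p 5.7e-09). In both of these genes the replicates lay close together and the groups wide apart.

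Ppp1r3c, which brings protein phosphatase 1 to glycogen, stood at 2.23, 3.601 and 2.43 CPM in saline and 14.2, 15.1 and 15.7 CPM in dex (2.47 ± 0.23, adjusted p 1.4e-05). G0s2, an inhibitor of the main triglyceride lipase, stood at 5.88, 6.89 and 7.39 CPM in saline and 25.9, 24.5 and 22.7 CPM in dex. Egln3, an oxygen-sensing prolyl hydroxylase, stood at 2.79, 4.65 and 2.24 CPM in saline and 12.3, 13.4 and 11.4 CPM in dex. Aspn, a collagen-binding proteoglycan of connective tissue (ENSMUSG00000021388, chromosome 13, 49544443 to 49567565), stood at 17.8, 26.3 and 20.2 CPM in saline and 70.6, 89.2 and 69.5 CPM in dex (1.87 ± 0.14, adjusted p 3e-06). The last of the 12 were Fgfr4, a receptor for fibroblast growth factors, which went from 8.53 ± 3.52 to 28.1 ± 3.87 CPM, and Myoc, a secreted glycoprotein that glucocorticoids induce in the eye, which went from 10.5 ± 2.66 to 34.3 ± 1.46 CPM. All 12 calls, Zbtb16 and Cebpd among them, held in each fit without 1 library.

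**Figure D2:**
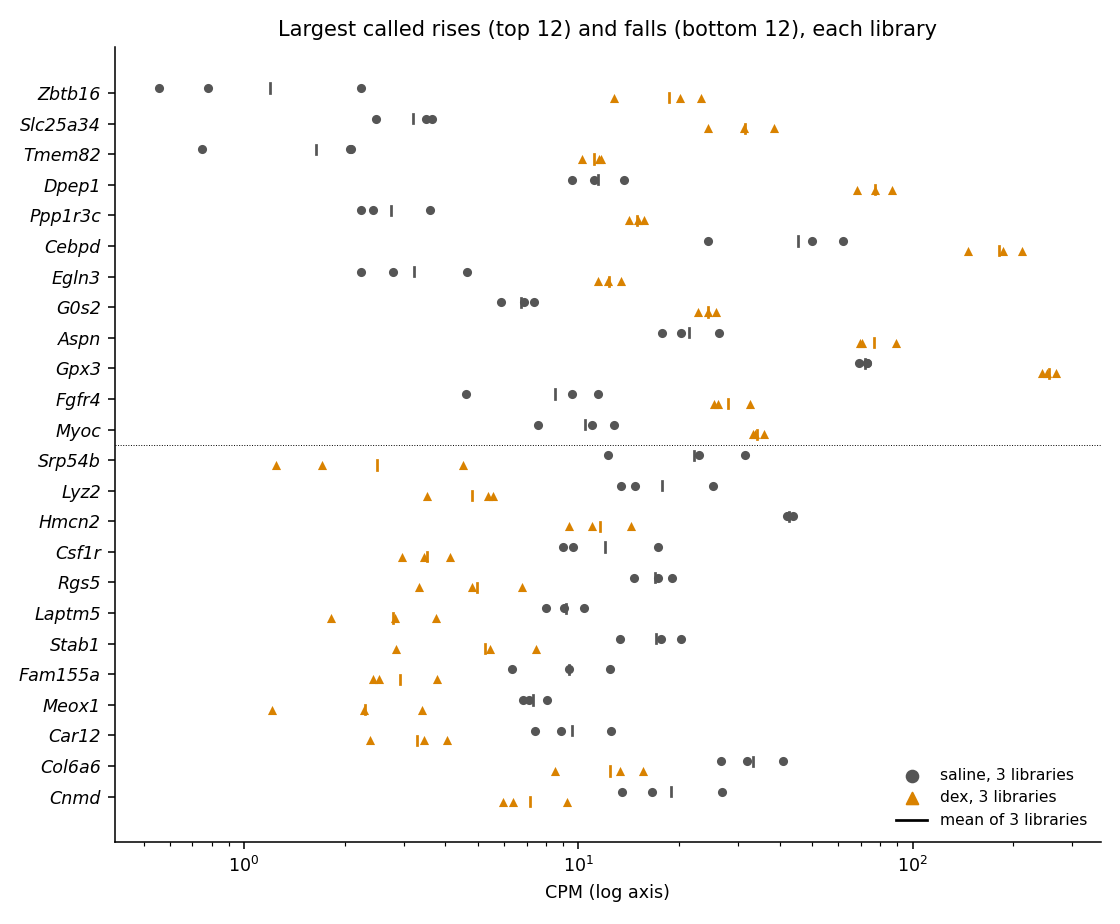
CPM on a log axis for the 12 largest called rises (top) and the 12 largest called falls (bottom), with grey circles for 3 saline libraries, orange triangles for 3 dex libraries and ticks for group means. The groups of each gene are apart by the rule, and Gpx3, which averaged 71.8 CPM in saline and 255 CPM in dex, has some of the tightest replicates.

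By the change in CPM itself, the 6 largest rises were in H19, Col1a1, Col1a2, Dlk1, mt-Rnr1 and Col6a2. H19, an imprinted long non-coding RNA of fetal tissues (ENSMUSG00000000031, chromosome 7, 142575529 to 142578143), stood at 1686, 1968 and 2087 CPM in saline and 4634, 4864 and 3929 CPM in dex (1.25 ± 0.10, adjusted p 3.4e-06). Dlk1, an imprinted membrane protein related to Notch ligands, stood at 2459, 2240.4 and 2352 CPM in saline and 3697, 4879 and 4029 CPM in dex (0.87 ± 0.10, adjusted p 0.000165). Col1a1 and Col1a2, the chains of collagen I, stood at 3240.03, 3792 and 2749.8 and 3536, 4466 and 3216 CPM in saline. In dex they stood at 4937, 5927 and 5975 and 4694, 5929 and 5320.4 CPM. Dex libraries were above saline libraries in all 4 genes. The log2 fold changes of the collagens were 0.82 and 0.54. The Col1a2 call was lost in 2 of the 6 fits without 1 library, up to an adjusted p of 0.0661 without saline somatic replicate 3. Of the 6, mt-Rnr1 is given above and Col6a2 with the collagens.

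The largest drops in CPM were mild in proportion. Hnrnpa1, a splicing factor, went from 1235 ± 174 to 900.5 ± 79.1 CPM (log2 fold change -0.42 ± 0.092), and 27.6% of its 64-base words also lie in other genes, which limits how surely reads are assigned to it. Aldh1a1, which makes retinoic acid, went from 1147 ± 21.1 to 893 ± 28.8 CPM (-0.33 ± 0.075), Dst, a linker of the cytoskeleton, from 858 ± 24.98 to 675 ± 24.7 CPM (-0.32 ± 0.078), and Gja1, the gap junction protein connexin 43, from 671 ± 45.8 to 515 ± 51.7 CPM (-0.36 ± 0.087). Unc13b, a vesicle priming protein, and Col15a1, a basement membrane collagen, fell too (-0.42 and -0.58). Of the 6, Unc13b alone held its call in each fit without 1 library, and adjusted p-values of the others reached 0.137 for Dst without saline somatic replicate 3 and 0.156 for Gja1 without dex somatic replicate 3.

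Among Sertoli cell genes, Mro and Hsd17b1 fell. Of 14 tested, these 2 were called (14.3% lower, against 1.17% of all genes), and the median was -0.044, with log2 fold changes between -0.40 and 0.34. Amh had a log2 fold change of 0.046 ± 0.093 (adjusted p 0.871), Sox9 of 0.014 ± 0.082 (0.961), Sox8 of -0.10 ± 0.086 (0.632) and Dmrt1 of -0.26 ± 0.10 (0.206). Mro is a gene expressed in male supporting cells and went from 314 ± 16.2 to 234 ± 10.04 CPM, and Hsd17b1, an enzyme of sex steroid conversion, went from 207 ± 13.5 to 155 ± 13.8 CPM. Neither call held in every fit without 1 library, with adjusted p-values up to 0.0674 without saline somatic replicate 3 and 0.158 without dex somatic replicate 3. The summed level of the list was 4155, 4061 and 4316 CPM in saline and 4463, 3725 and 4099.6 CPM in dex, which overlap. In bulk RNA, fewer cells of a type and less RNA per cell cannot be told apart, and this holds for every list that follows.

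Of the fetal Leydig cell genes, Star and Ren1 fell. Of 9 genes tested, 8 had a log2 fold change below 0, 2 were called, both lower (22.2%), and the median was -0.37. Star stood at 38.5, 32.4 and 35.2 CPM in saline and 25.4, 20.7 and 18.6 CPM in dex (-0.69 ± 0.14, adjusted p 0.0102), and the groups did not overlap. Ren1, which encodes renin and which mouse fetal Leydig cells also express, stood at 19.5, 16.03 and 13.7 CPM in saline and 11.5, 5.83 and 8.17 CPM in dex (-0.93 ± 0.23, adjusted p 0.03198). The steroidogenic enzymes had values of the same sign that did not pass: -0.19 ± 0.33 for Cyp11a1, -0.34 ± 0.25 for Cyp17a1 and -0.37 ± 0.26 for Hsd3b1 (adjusted p 0.841, 0.566 and 0.545). Neither call held without every library: the adjusted p of Star reached 0.0669 without dex somatic replicate 3 and that of Ren1 0.163 without saline somatic replicate 1. Summed levels were 565, 441 and 482 CPM in saline and 476, 353 and 366 CPM in dex, which overlap.

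Several contractile genes of peritubular smooth muscle rose. Of 11 tested, 5 were called, all higher (45.5% against 2.74%), 10 had a value above 0, and the median was 0.35. Des, the intermediate filament desmin, stood at 30.03, 35.5 and 34.4 CPM in saline and 65.2, 80.5 and 68.6 CPM in dex (1.13 ± 0.12, adjusted p 4e-05). Acta2 stood at 875, 881 and 847 CPM in saline and 1198, 1185 and 1072 CPM in dex (0.44 ± 0.077, adjusted p 0.00367). Both calls held in each fit without 1 library. That of Acta2 was lost on FPKM (adjusted p 0.0778 on log2(FPKM + 0.1) and 0.0753 on log2(FPKM + 1)) and in the fit of all 12 libraries (0.0746). On log2(FPKM + 0.1) only Des of the 5 was called, and with library totals 3 genes of the list were. Mylk, the myosin light chain kinase, Tpm2, a tropomyosin, and Lmod1, a leiomodin, rose by 0.38, 0.30 and 0.58, but each lost its call in at least 1 fit without 1 library (adjusted p up to 0.1702 for Lmod1 without saline somatic replicate 3). Myh11, Cnn1 and Tagln did not pass, at 0.23 ± 0.097, 0.15 ± 0.19 and 0.53 ± 0.43, and 67.9% of the exon bases of Tagln lie in another annotated gene. The summed level was 2084, 2306 and 2072 CPM in saline and 2849, 2731 and 2576 CPM in dex, without overlap.

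Stromal values were all above 0 and pericyte genes went both ways. All 10 stromal genes tested had values above 0, with a median of 0.19, but only Pdgfra, the PDGF receptor of fibroblasts, was called (10%). It stood at 703, 888 and 649 CPM in saline and 1002, 1171 and 921 CPM in dex (0.50 ± 0.11, adjusted p 0.0132). The Pdgfra call was lost in 3 of the 6 fits without 1 library, up to an adjusted p of 0.0903 without saline somatic replicate 3. Tcf21 and Nr2f2, transcription factors of this lineage, had values of 0.35 ± 0.12 and 0.19 ± 0.081 that did not pass (adjusted p 0.1604 and 0.2397). Of 6 pericyte genes tested, Cspg4, the NG2 proteoglycan, and Ndufa4l2, a mitochondrial protein induced by low oxygen, rose by 0.55 and 1.47 (33.3%), and Rgs5 fell (16.7%). Rgs5, a regulator of G protein signaling (ENSMUSG00000026678, chromosome 1, 169655501 to 169695813), stood at 19.02, 14.7 and 17.2 CPM in saline and 3.34, 4.82 and 6.804 CPM in dex (-1.73 ± 0.24, adjusted p 0.000519), without overlap. The Ndufa4l2 call was lost in 3 of the 6 fits without 1 library, up to an adjusted p of 0.0737 without dex somatic replicate 3. The other pericyte calls held in each.

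Endothelial genes went both ways. Of 23 tested, 3 were called lower (13%) and 2 higher (8.7%), 17 had values below 0, and the median was -0.49, while the summed level had the opposite sign, at 574, 587 and 588 CPM in saline and 701, 806 and 626 CPM in dex. Eng, a co-receptor for TGF-beta, and Ramp2, which pairs with the receptor for adrenomedullin, rose by 0.79 and 0.45. The Ramp2 call was lost in all 6 fits without 1 library, and 33.4% of its exon bases lie in another annotated gene. Eng and Cdh5 (VE-cadherin) carried most of the sum, at 35.5 and 48.98 FPKM in saline (the authors' value per gene length), against 2.38 FPKM for Pecam1 and 1.27 FPKM for Kdr. Among the less abundant genes, Aplnr, the apelin receptor of vessels, stood at 6.54, 6.19 and 7.43 CPM in saline and 1.302, 1.17 and 2.27 CPM in dex. Tek, the angiopoietin receptor TIE2, stood at 9.38, 5.71 and 8.31 CPM in saline and 3.74, 2.64 and 3.48 CPM in dex (-1.23 ± 0.29, adjusted p 0.0267). Sox7, a transcription factor of endothelium, was at 2.43, 3.07 and 1.701 CPM in saline and at 0.3398, 0 and 0 CPM in dex, where replicates 2 and 3 held no count, so its fitted change is not given. Pecam1 was below saline in every dex library but missed the threshold (-0.71 ± 0.20, adjusted p 0.0686). Tie1, Kdr and Cdh5 did not pass either, at -1.04 ± 0.37, -0.49 ± 0.30 and 0.23 ± 0.11. Eng and Aplnr held in each fit without 1 library, while Tek reached an adjusted p of 0.147 without saline somatic replicate 1, Sox7 0.0742 without saline somatic replicate 2 and Ramp2 0.174 without dex somatic replicate 2.

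Macrophage and monocyte genes held the most falls of any cell type list. Of 21 tested, 20 had values below 0 and 7 were called, all lower (33.3% against 1.17% of all genes), with a median of -1.14. The summed level of the list was 97.8, 101 and 159 CPM in saline and 59.3, 51.8 and 44.4 CPM in dex, a ratio of 0.434, and the groups did not overlap. Csf1r, the receptor for the growth factor on which macrophages depend, stood at 8.98, 9.66 and 17.3 CPM in saline and 4.13, 3.45 and 2.97 CPM in dex (-1.75 ± 0.28, adjusted p 0.002003). 15.1% of its exon bases lie in another gene. Lyz2, the lysozyme of myeloid cells, stood at 14.8, 13.4 and 25.2 CPM in saline and 5.55, 5.37 and 3.53 CPM in dex (-1.87 ± 0.27, adjusted p 0.000574), and Laptm5, a lysosomal protein of blood cells, at 9.08, 7.99 and 10.4 CPM in saline and 3.74, 1.83 and 2.82 CPM in dex. These 3 calls held in each fit without 1 library, but that of Csf1r was lost on FPKM (adjusted p 0.0564 on log2(FPKM + 0.1) and 0.0656 on log2(FPKM + 1)). On log2(FPKM + 0.1) limma called 2 genes of the list, Lyz2 and Laptm5.

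Mrc1, the mannose receptor CD206 of resident macrophages, stood at 9.08, 10.7 and 14.4 CPM in saline and 7.305, 4.71 and 4.99 CPM in dex (-0.99 ± 0.25, adjusted p 0.0333). Mpeg1, a pore-forming protein of phagocytes, Cx3cr1, the fractalkine receptor, and Tyrobp, a signaling adaptor of myeloid cells, fell as well (-1.01, -2.35 and -2.43). In fits without 1 library the adjusted p of these 4 reached 0.199 (Mrc1, without saline somatic replicate 3), 0.082 (Mpeg1, without saline somatic replicate 3), 0.231 (Cx3cr1, without saline somatic replicate 3) and 0.353 (Tyrobp, without saline somatic replicate 3). Saline replicate 3 had the highest summed level of the list. Adgre1 (F4/80) and Cd68, much used macrophage markers, did not pass, at -1.26 ± 0.59 and -0.50 ± 0.29 (adjusted p 0.3105 and 0.451).

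Lists for other blood cells had few genes with enough counts. Only 2 of 7 lymphocyte genes had enough counts, and Cd79a, part of the B cell receptor, was called lower at 1.93, 2.196 and 1.94 CPM in saline and 0.396, 0.304 and 0.454 CPM in dex (-2.35 ± 0.62, adjusted p 0.0456). That call was lost in fits without 1 library, up to an adjusted p of 0.158 without saline somatic replicate 2. Of the B cell genes outside the rule, named after their values were seen, Ighm, the heavy chain of IgM, went from 5.25 ± 2.22 to 0.366 ± 0.0781 CPM (-3.80 ± 0.51, adjusted p 0.000343). None of 8 granulocyte and mast cell genes was called, and S100a8 had a value of 0.69 ± 0.39 (edgeR; 0 at an unadjusted p under 0.05 and 0 called by DESeq2). Of 5 erythroid genes tested, the adult beta globins Hbb-bs and Hbb-bt were called lower (40%), at -1.21 and -1.29. Of their 64-base words, 52.3% and 57.3% are shared with another gene. The alpha globin Hba-a1 was not called (-0.53), at 203 ± 62.7 CPM in saline and 136 ± 81.5 CPM in dex, and 1 gene of the list had a value above 0 (0.42). Hbb-bs stood at 79.5, 103 and 73.95 CPM in saline and 15.6, 63.7 and 28.4 CPM in dex, and the summed erythroid level at 256, 395 and 259.9 CPM in saline and 86.1, 299.6 and 154 CPM in dex, so that dex replicate 2 lay within the range of the saline libraries in the sum. Both calls were lost without single libraries (adjusted p up to 0.199 without dex somatic replicate 3 for Hbb-bs and up to 0.164 without dex somatic replicate 3 for Hbb-bt). DESeq2 did not call Hbb-bs.

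No gene was called in the lists for germ cells (7 tested, median -0.58), mesothelium (5, 0.20), mesonephric duct and rete (4, -0.014), Schwann cells (4, 0.27) and adrenal cortex (2, 0.80). At an unadjusted p under 0.05 edgeR gave 0 genes in the first 3 of these lists and 1 gene in each of the last pair, and DESeq2 called 0 in all 5. Akr1b7, of the adrenal list, stood at 15.2, 16.95 and 15.8 CPM in saline and 14.2, 16.2 and 12.1 CPM in dex, and its groups overlapped. In these small lists the median rests on single genes.

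**Figure D3:**
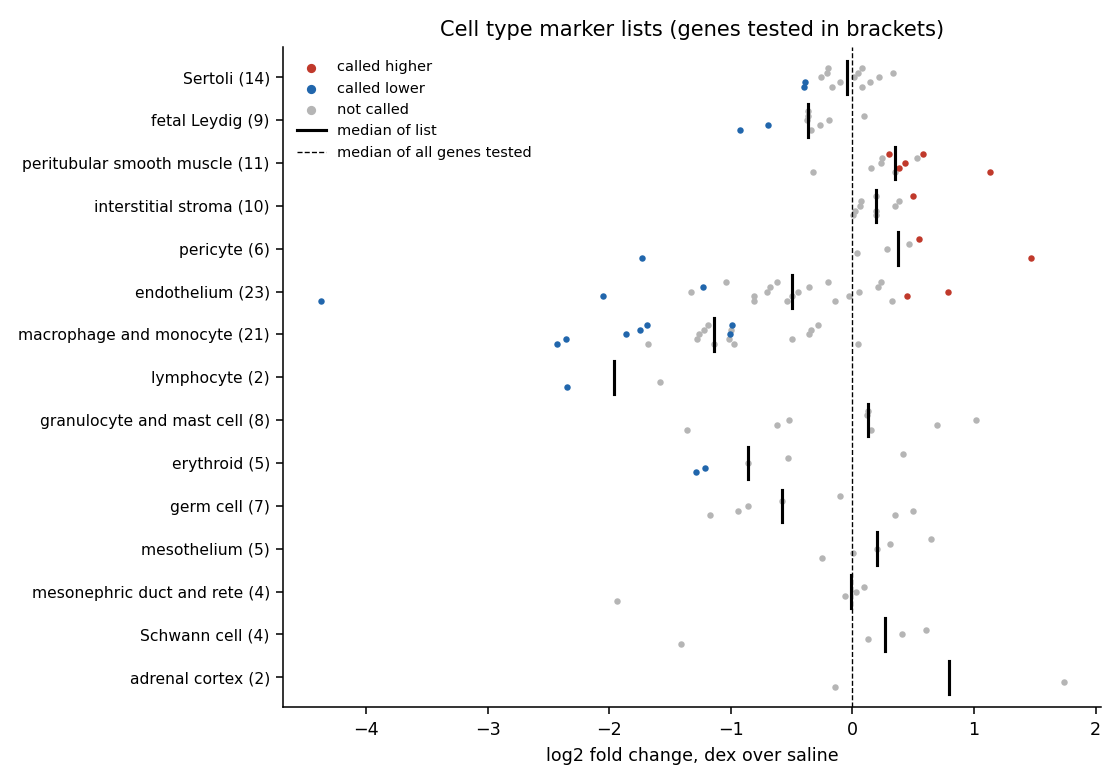
Log2 ratio of dex to saline on the x axis for every tested gene of 15 cell type lists (rows, with the number tested), colored by call, with a black bar at each list's median and a dashed line at the median over all genes, -0.0066. Of 21 macrophage genes 20 lie below 0, with a median of -1.14, and of 11 peritubular genes 10 lie above 0, with a median of 0.35.

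The largest falls among genes with a mean log2 CPM of at least 2 included members of these cell type lists. Besides Lyz2, Csf1r, Laptm5, Rgs5 and Srp54b, the 12 held Stab1, a scavenger receptor of tissue macrophages and sinusoidal endothelium, which stood at 13.3, 20.3 and 17.6 CPM in saline and 7.47, 2.84 and 5.44 CPM in dex (-1.68 ± 0.28, adjusted p 0.00214). Hmcn2, a large extracellular protein of the hemicentin family (ENSMUSG00000055632, chromosome 2, 31314415 to 31460738), had the smallest adjusted p of the 12 and went from 42.2, 42.2 and 43.7 CPM in saline to 9.4001, 10.95 and 14.4 CPM in dex (-1.85 ± 0.15, adjusted p 5.7e-06). Col6a6, a chain of collagen VI, stood at 26.7, 41.1 and 31.9 CPM in saline and 8.49, 15.6 and 13.3 CPM in dex. Fam155a (-1.65), Meox1, a homeobox gene of mesoderm (-1.65), Car12, a carbonic anhydrase (-1.50), and Cnmd, an inhibitor of vessel growth in cartilage (-1.38), make up the rest. The calls of Fam155a and Meox1 were lost without saline somatic replicate 3 (adjusted p 0.0566 and 0.0501), and the other 10 held in each such fit. On log2(FPKM + 0.1), however, limma did not call Csf1r, Stab1, Fam155a, Meox1, Car12, Col6a6 or Cnmd. The steepest fall, that of Srp54b (-3.11), is uncertain, since 88.7% of its 64-base words also lie in other genes.

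More collagens rose than fell. Of 41 tested, 9 were called higher (22%, against 2.74% of all genes) and 3 lower (7.32%, against 1.17%), with a median of 0.30, and the summed level went from 20363, 25522 and 19016 CPM in saline to 27100.2, 31617 and 28469.7 CPM in dex, without overlap. Most of the rises lay in the fibrillar collagens of connective tissue and in collagen VI, which forms beaded filaments around cells. Col6a1, Col6a2 and Col6a3 rose by 0.64, 0.65 and 0.64, and Col5a1 and Col5a2 by 0.48 and 0.54. Col12a1 and Col7a1, of other collagen types, rose by 0.53 and 0.70. The falls were Col15a1, Col14a1, which binds fibril surfaces (-0.74), and Col6a6, itself a chain of collagen VI (-1.38). Calls for Col1a1, Col6a1, Col6a2, Col6a3 and Col6a6 held in each fit without 1 library, and the others reached at most 0.136 (Col12a1, without saline somatic replicate 3). On log2(FPKM + 0.1) 3 collagens were called, all higher.

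Calls among small proteoglycans and elastic fiber genes were rises. Of 9 small leucine-rich proteoglycans tested, 4 were called, all higher (44.4%), at a median of 0.47. Bgn (biglycan) stood at 884, 881 and 823 CPM in saline and 1356, 1583 and 1333 CPM in dex, and Dcn (decorin) at 571, 685 and 490.5 CPM in saline and 819, 1039 and 949 CPM in dex, all without overlap. Ogn (osteoglycin) rose by 0.61, a call lost without saline somatic replicate 3 (adjusted p 0.0815). Of 29 elastic and matricellular genes, 7 were called, all higher (24.1%), with a median of 0.21. They were Sparcl1 (1.07), an antiadhesive protein, Ctgf (1.04), a growth factor partner in fibrous tissue, Eln (0.61), elastin itself, and Mfap2, Ltbp4, Fbln5 and Matn2 (0.54, 0.45, 0.56 and 0.49). Eln stood at 561, 703 and 562 CPM in saline and 867, 932 and 932 CPM in dex. Fbln5 and Matn2 lost their calls in fits without 1 library (up to 0.166 for Matn2 without saline somatic replicate 3). With library totals the elastic and matricellular list had 1 fall, and on log2(FPKM + 0.1) 4 rises.

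Calls among enzymes that shape the matrix were also rises. Of 31 tested, 10 were called, all higher (32.3%), and the median was 0.22. Lox, which cross-links collagen and elastin, went from 114 ± 21.5 to 198 ± 51.1 CPM (0.84 ± 0.15, adjusted p 0.00372), and Timp2, an inhibitor of metalloproteases, from 318 ± 27.8 to 507 ± 68.2 CPM (0.70 ± 0.095). The aggrecanases and their relatives Adamts5, Adamts12, Adamts1 and Adamts4 rose by 0.57, 0.68, 0.49 and 0.60, and Mmp14, a membrane protease, by 0.35. The collagen hydroxylases Plod3 and P4ha2 rose by 0.47 and 0.50. Only Timp2, Adamts5, Lox and Adamts12 held in each fit without 1 library, and the others reached at most 0.196 (Adamts4, without saline somatic replicate 1). With library totals the list had 9 rises and 2 falls, and on log2(FPKM + 0.1) 2 rises.

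Laminins, the core of basement membranes, divided by chain. Of 15 genes tested, Lamc3, Lama2 and Lamb3 rose (0.67, 0.48 and 1.61, 20% of the list) and Lama1 and Lama3 fell (-0.30 and -0.49, 13.3%), with a median of 0.11. Lamc3 went from 433 ± 42.01 to 674 ± 64.3 CPM and Lama1 from 254 ± 20.1 to 201 ± 9.102 CPM. Lamc3 and Lama2 held in each fit without 1 library, and Lama1 reached an adjusted p of 0.177 without dex somatic replicate 3. Of 16 integrins, Itga5, a fibronectin receptor chain, rose (0.43) and Itga6, a laminin receptor chain, fell (-0.35), 6.25% in each direction, at a median of 0.080, and both calls were lost without single libraries (0.0719 without saline somatic replicate 1 and 0.0666 without dex somatic replicate 3).

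**Figure D4:**
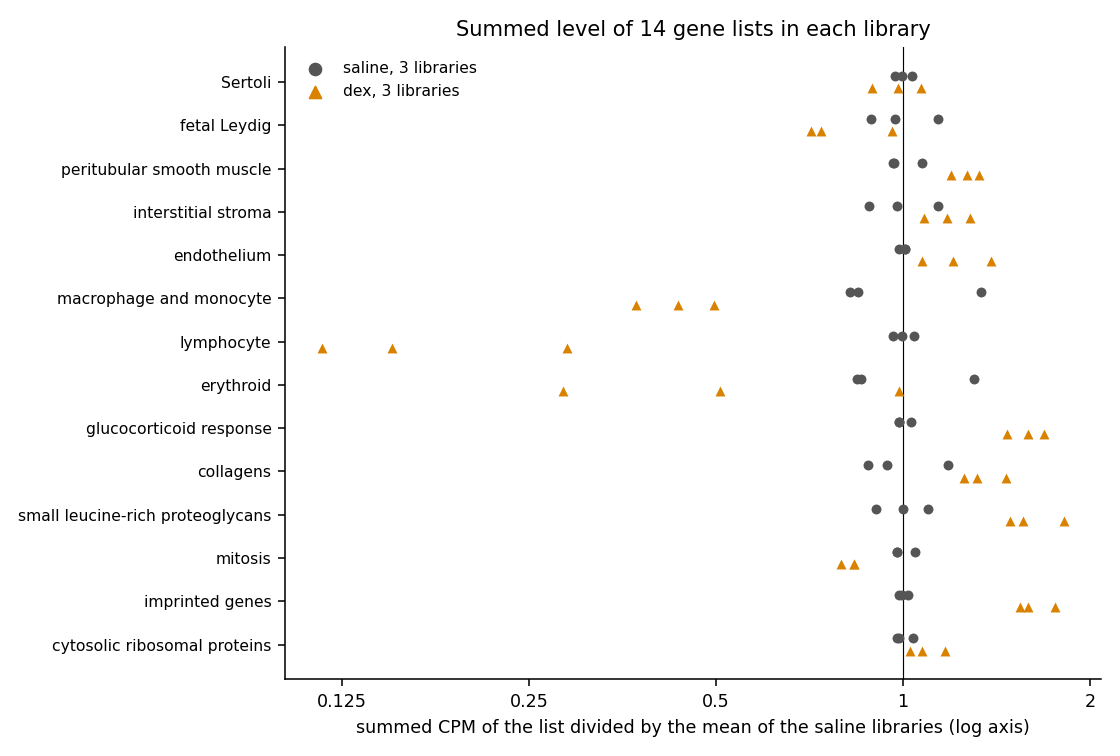
The summed CPM of 14 lists in each library, divided by the mean of the saline libraries, on a log axis, with grey circles for saline and orange triangles for dex. The macrophage sums of dex libraries are all below those of saline (ratio of means 0.434), while collagen and small proteoglycan sums are all above (1.34 and 1.62).

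Calls among genes of sugar metabolism were rises. Glycolysis and glucose transport had 3 rises and no fall among 21 genes (14.3% higher, against 2.74% of all genes, and a median of 0.14): Eno1, Gpi1 and Ldha, by 0.37, 0.30 and 0.29. None of the 3 calls held in each fit without 1 library, Ldha reaching an adjusted p of 0.181 without saline somatic replicate 1, and 24.2% of the 64-base words of Eno1 occur in another gene. With library totals the list had 1 rise and 1 fall. In the list of gluconeogenesis and glycogen, 2 of 17 rose (11.8%), Ppp1r3c and Pygm, at a median of 0.087. Pygm, the muscle form of glycogen phosphorylase, went from 78.2 ± 16.5 to 120.5 ± 22.3 CPM (0.66). Its call was lost in 3 of the 6 fits without 1 library, up to an adjusted p of 0.0782 without saline somatic replicate 3.

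Genes of fat metabolism also had calls. Of 30 genes of fatty acid oxidation and ketone metabolism, 3 were called, all higher (10%), and the median was 0.058, turning to -0.0015 with library totals. Acaa2, which carries out the last step of beta-oxidation, stood at 189, 194 and 182 CPM in saline and 355, 373 and 344 CPM in dex (0.95 ± 0.075, adjusted p 3.3e-06), and Pdk4, which slows the entry of pyruvate into the mitochondrion, went from 7.72 ± 0.995 to 14.9 ± 4.28 CPM. Of 20 lipid storage and transport genes, G0s2, Angptl4, Vldlr and Dgat2 rose (the last pair by 0.85 and 0.96; 20% of the list), and Abcg1, a cholesterol exporter, fell (-0.76, 5%), with a median of 0.13. The calls for Vldlr, Dgat2 and Abcg1 were lost in fits without 1 library (up to 0.172 for Dgat2 without dex somatic replicate 2). Scd1, which makes monounsaturated fat, was the only call among 29 genes of sterol and fatty acid synthesis (0.77, adjusted p 0.0459). This was 3.45% of the list, near the 2.74% of all genes. The Scd1 call was lost in 4 of the 6 fits without 1 library, up to 0.184 without dex somatic replicate 1. The median of the list was 0.056 and turned to -0.0038 with library totals.

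No listed protein of the respiratory chain or of the cytosolic ribosome was called. Of 76 nuclear subunits of oxidative phosphorylation none was called, with a median of 0.073, and of 12 protein-coding genes of the mitochondrial genome none was called (-0.011). The ribosomal RNAs of that genome, mt-Rnr1 and mt-Rnr2, were called higher (1.36 and 1.37), among the genes with ribosomal RNA sequence given above. Ribosomal proteins gave 0 calls of 77, with 64 values above 0 and a median of 0.13. At an unadjusted p under 0.05, edgeR gave 10 of the 76, 1 of the 12 and 19 of the 77, and DESeq2 called 1, 0 and 6 genes of these 3 lists at an adjusted p of 0.05 or less.

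Antioxidant genes included several clear rises. Of 46 genes of glutathione and antioxidant metabolism, 7 were called, all higher (15.2%), and all 7 held in each fit without 1 library, while the median was 0.060. Beside Gpx3, Dpep1, Mt1 and Txnip they were Fmo1, a flavin monooxygenase that went from 12.4 ± 1.57 to 31.8 ± 5.86 CPM (1.39 ± 0.16), Sod3, the extracellular superoxide dismutase, from 88.6 ± 8.06 to 137 ± 17.3 CPM (0.66 ± 0.098), and Cyp1b1, a cytochrome that oxidizes steroids and retinoids, from 23.1 ± 2.41 to 46.9 ± 12.6 CPM (1.05 ± 0.17). Amino acid genes went both ways. Of 18 transporters, Slc6a6, the taurine transporter, and Slc38a4 rose (0.57 and 0.68, 11.1% of the list), and Slc7a8, Slc38a1 and Slc7a1 fell (-0.53, -0.44 and -0.35, 16.7%), at a median of -0.030. Of 32 genes of amino acid and one-carbon metabolism, Asl and Glul rose (0.48 and 0.47, 6.25%) and Odc1, the start of polyamine synthesis, fell (-0.37, 3.12%), at a median of -0.057. Of these 8 calls, Slc6a6 and Asl held in each fit without 1 library, and Glul reached an adjusted p of 0.211 without saline somatic replicate 1.

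Retinoic acid, made by Sertoli cells among others and needed by germ cells later in life, had 2 calls of 16 in opposite directions (6.25% each way, median 0.038, and -0.021 with library totals). Of these, Aldh1a1 fell as given above, and its adjusted p reached 0.106 without saline somatic replicate 1.

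Among inflammatory signals, Il1r2 rose and Tnf fell. They were the calls among 26 genes of NF-kB and inflammatory cytokines (3.85% each way), at a median of -0.014. Il1r2, the decoy receptor for interleukin 1, stood at 0.101, 0.132 and 0.0972 CPM in saline, at or below the level of 3 counts in each library, and at 1.36, 2.18 and 1.41 CPM in dex. Tnf, the inflammatory cytokine, stood at 7.35, 2.59 and 10.7 CPM in saline and 1.98, 0.507 and 1.56 CPM in dex (-2.34 ± 0.53, adjusted p 0.0194). The Tnf call was lost in 4 of the 6 fits without 1 library, up to 0.153 without saline somatic replicate 3. The Il1r2 call was lost in 3 of those fits, up to 0.0679 without dex somatic replicate 2. Of 13 chemokine genes, Cxcl12, which attracts stem and germ cells, rose, and Cxcl14 fell (-1.57), 7.69% each way. The summed level of the chemokine list was higher in every dex library, carried by Cxcl12, at a median of -0.22. The Cxcl14 call was lost in 5 of the 6 fits without 1 library, up to an adjusted p of 0.153 without saline somatic replicate 3.

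Of 23 interferon response genes, the 3 calls were all membrane proteins of the Ifitm family, which block virus entry: Ifitm1, Ifitm3 and Ifitm2 rose by 1.06, 0.63 and 0.51, 13% of the list, at a median of -0.023. Ifitm1 held in each fit without 1 library, Ifitm3 and Ifitm2 reached 0.0552 and 0.172, and 44.9% of the 64-base words of Ifitm2 occur in another gene. Of 18 complement and coagulation genes, 3 rose (16.7%), all of the classical complement pathway, at a median of 0.21. Serping1, the C1 inhibitor, stood at 145, 133 and 114 CPM in saline and 212, 245 and 233 CPM in dex (0.85 ± 0.096, adjusted p 9.6e-05). C1s1 and C1ra, its target proteases, rose by 1.22 and 0.89, with 28.9% and 45.7% of their words in another gene, and all 3 calls held in each fit without 1 library. None of 14 antigen presentation genes was called (median -0.014; edgeR gave 4 at an unadjusted p under 0.05, and DESeq2 called 0).

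Genes of cell division had small values below 0. All 40 mitosis genes tested had values below 0, between -0.40 and -0.054, with a median of -0.25, and 3 fell (7.5%): Prc1, Ccna2 and Top2a, at -0.38, -0.35 and -0.30. With library totals 14 were called lower, at a median of -0.31, and on log2(FPKM + 0.1) limma called 0. The summed level was 4286, 4583 and 4299 CPM in saline and 3487, 3655 and 3664 CPM in dex, without overlap. None of the 3 calls held in each fit without 1 library (up to 0.1404 for Ccna2 without dex somatic replicate 1). Mitosis genes are regulated together, so that their shared sign is not 40 separate observations. None of 40 DNA replication genes was called (median -0.089; edgeR gave 5 at an unadjusted p under 0.05, and DESeq2 called 0). Among 20 G1 cyclins and inhibitors of cyclin-dependent kinases (median -0.17), Cdkn1c, the imprinted inhibitor p57, stood at 52.6, 68.9 and 46.5 CPM in saline and 105, 114 and 125 CPM in dex (1.07 ± 0.12, adjusted p 8e-05), and 30.7% of its exon bases lie in another gene. Ccnd3 and E2f1 rose by 0.40 and 0.37 (15% of the list with Cdkn1c) and Cdkn2c fell (-0.44, 5%), all of them lost in fits without 1 library (up to 0.146 for E2f1 without dex somatic replicate 2). None of 15 genes of the Bcl2 family, which governs apoptosis, was called (median 0.038, and -0.022 with library totals). In that family edgeR gave 4 genes at an unadjusted p under 0.05, and DESeq2 called 0.

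Several growth factors and receptors rose. Of 16 genes of the IGF axis, 4 were called, all higher (25%), and 2 with library totals, at a median of 0.19. Igf1 stood at 221, 257 and 273 CPM in saline and 381, 504 and 409 CPM in dex (0.81 ± 0.11, adjusted p 0.000343). Stc2, an inhibitor of a protease that frees IGF, rose by 0.95, Igfbp7 by 0.42 and Igf2 by 0.66. The last pair lost their calls without single libraries (0.153 without saline somatic replicate 3 and 0.202 without dex somatic replicate 2), and 64.5% of the exon bases of Igf2 lie in another gene. Of 26 genes of the FGF, PDGF and VEGF axes, Fgfr4, Fgfr2, Fgfr1 and Pdgfra rose (15.4%), at a median of 0.089, Fgfr2 from 35.7 ± 5.42 to 60.4 ± 5.595 CPM. Fgfr4 and Fgfr2 held in each fit without 1 library. The calls of Fgfr1 and Pdgfra did not, Fgfr1 reaching an adjusted p of 0.123 without dex somatic replicate 2. In the list of FoxO and mTOR control, Pik3r1, the regulatory subunit of PI3 kinase, and Klf15, a glucocorticoid-induced transcription factor, rose by 0.58 and 0.97, and Fbxo32, a ubiquitin ligase of muscle wasting, fell (-0.71; 11.8% higher, 5.88% lower, median of 17 genes 0.11). Of the last 3 calls only that of Pik3r1 held in each fit without 1 library (Fbxo32 up to 0.1201 without dex somatic replicate 3).

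Kinase feedback and immediate early genes rose in part. Of 17 MAP kinase feedback inhibitors, Errfi1 and Dusp1, a phosphatase that switches off MAP kinases, rose, Dusp1 by 0.45 (11.8%, median 0.082). Of 18 immediate early and heat shock genes, which also respond to the handling of cells, Fos, Ier2 and Egr1 rose, by 0.80, 0.68 and 0.51 (16.7%), at a median of 0.24. Fos stood at 997, 692 and 1025 CPM in saline and 1656, 1616 and 1377 CPM in dex, and the summed level of the list did not overlap between groups. The part of cell handling in these values was not tested. Egr1 lost its call in 4 of the 6 fits without 1 library, up to an adjusted p of 0.121 without dex somatic replicate 1. DESeq2 did not call it either.

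Developmental signaling lists held between 1 and 4 calls each. Of 36 Wnt genes, Wnt4, Nkd1 and Lgr4 rose (0.87, 0.56 and 0.35, 8.33%) and Nkd2 fell (-0.79, 2.78%), at a median of 0.061. Wnt4, a ligand of the ovary and of stroma, went from 25.7 ± 1.999 to 45.9 ± 6.08 CPM. Of 39 genes of TGF-beta, BMP and activin signaling, Tgfbr3, the co-receptor betaglycan, went from 93.04 ± 12.996 to 173 ± 27.4 CPM, Inhba, the activin A subunit, rose by 0.51, and 1 gene fell (5.13% higher, 2.56% lower, median -0.082). Of 11 Hedgehog genes, the co-receptors Gas1 and Boc rose by 0.82 and 0.48 (18.2%, median 0.14). Of 17 Notch genes Dlk1 alone was called (5.88%), and it also carried the rise in the summed level, while the median was -0.18. Wnt4, Tgfbr3, Gas1 and Dlk1 held in each fit without 1 library, while Nkd1, Nkd2, Lgr4, Inhba and Boc did not (adjusted p up to 0.0602 for Inhba without saline somatic replicate 3 and 0.1203 for Lgr4 without dex somatic replicate 3).

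The renin-angiotensin and vasoactive list had 7 rises (24.1%) and 1 fall (3.45%) among 29 genes, at a median of 0.29. Agtr2, the type 2 angiotensin receptor of fetal mesenchyme (ENSMUSG00000068122, chromosome X, 21484544 to 21489164), stood at 143, 168 and 139 CPM in saline and 328, 436 and 371 CPM in dex (1.37 ± 0.10, adjusted p 2.5e-06). Agt, the precursor angiotensinogen, stood at 13.8, 13.8 and 9.18 CPM in saline and 40.6, 31.7 and 33.2 CPM in dex (1.55 ± 0.16, adjusted p 5.2e-05), while Ren1, the enzyme that cuts it, fell as given for Leydig cells. Agtr1a, Ednra, an endothelin receptor, Npr2, a natriuretic peptide receptor, and the receptor partner Ramp1 rose by 2.12, 0.42, 0.45 and 2.02, besides Ramp2. Agtr2, Agt, Npr2 and Ramp1 held in each fit without 1 library, and Agtr1a and Ednra reached 0.142 without dex somatic replicate 3 and 0.132 without saline somatic replicate 3. Of 12 sodium and water transport genes, Scnn1b, a subunit of the epithelial sodium channel, Slc9a3r2 and the water channel Aqp1 rose by 1.19, 0.71 and 0.71 (25%), at a median of 0.17. Of these only Slc9a3r2 held in each fit without 1 library.

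In the hypoxia-inducible factor list, 3 of 14 rose (21.4%) and the median was 0.012, which turned to -0.047 with library totals. Hif3a, an inhibitory member of the family that glucocorticoids induce in several tissues, stood at 60.8, 55.1 and 60.8 CPM in saline and 125, 143 and 132 CPM in dex (1.21 ± 0.095, adjusted p 3.3e-06). Egln3 is given above, and Ndrg1 rose by 0.67. All 3 held in each fit without 1 library.

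Somatic signals to germ cells were mostly higher where they were called. Of 13 niche genes, 3 rose (23.1%) and 1 fell (7.69%), at a median of 0.063. Cxcl12, which guides germ cells through their receptor CXCR4, stood at 303, 386 and 358 CPM in saline and 543, 528 and 430.4 CPM in dex (0.55 ± 0.098, adjusted p 0.00419), and Igf1 and Inhba rose as given above. Gdnf, the Sertoli cell factor that sustains spermatogonial stem cells, stood at 89.5, 93.1 and 97.96 CPM in saline and 78.4, 66.9 and 71.5 CPM in dex (-0.35 ± 0.092, adjusted p 0.0495). It was lost in several alternatives, up to an adjusted p of 0.207 without saline somatic replicate 3.

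Imprinted genes had 6 rises and no fall. Of 16 tested, 6 were called, all higher (37.5% against 2.74%), with a median of 0.23, and 13 values lay above 0. They were H19, Dlk1, Cdkn1c, Igf2, Zim1, a zinc finger gene, which went from 115 ± 6.04 to 181 ± 6.87 CPM, and Peg3, a regulator of growth and maternal behavior, which rose by 0.40. The summed level was 8687, 8396 and 8485 CPM in saline and 13162, 14969 and 13558 CPM in dex, without overlap. Igf2 and Peg3 lost their calls in fits without 1 library, Peg3 with an adjusted p of 0.132 without saline somatic replicate 3.

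**Figure D5:**
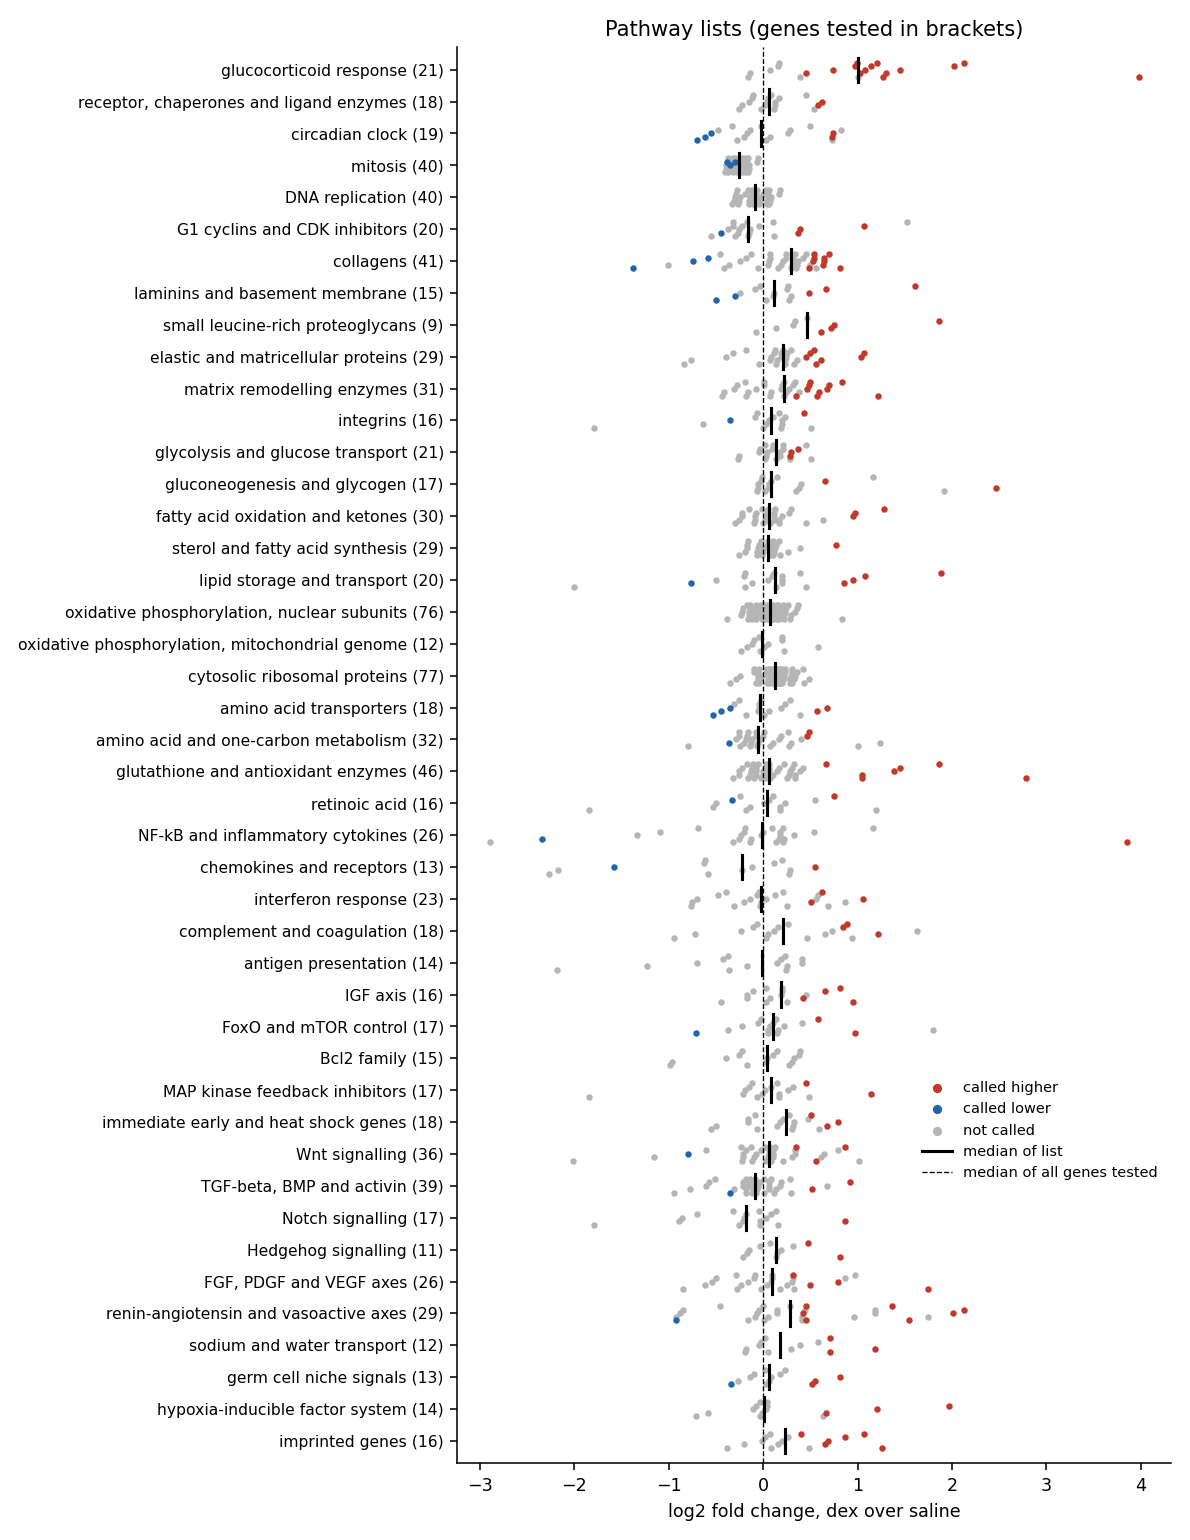
Log2 ratio of dex to saline on the x axis for every tested gene of 44 pathway lists (rows, with the number tested), colored by call, with a black bar at each list's median and a dashed line at the median over all genes, -0.0066. The glucocorticoid response list stands far right with a median of 1.01, all 40 mitosis genes lie left of 0, and no gene of the respiratory chain or the ribosome lists is colored.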

How the data were processed

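Bulk RNA-seq was measured in 12 libraries of sorted testicular cells, of which the 6 somatic libraries (3 dex, 3 saline) form the comparison. The authors deposited raw counts per gene and FPKM values. Per the submitters' processing notes, reads were aligned with HISAT2 2.0.5 to mm10, counted with featureCounts 1.5.0-p3 and tested with DESeq2 1.20.0. The annotation release and the strand setting are not given in the sources used here, so overlapping genes cannot be told apart with certainty. The deposited tables of the authors' own comparisons (fold changes and p-values) were not used.

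Counts as deposited were tested with edgeR 4.0.16 in R 4.3.3 (quasi-likelihood test, TMM over the 6 somatic libraries, filterByExpr with a minimum count of 10, Benjamini-Hochberg adjusted p at or under 0.05, two-sided). Printed CPM values use TMM over all 12 libraries, whereas the fit uses the 6 alone. FPKM values, which the authors made by scaling to gene length and depth, served for levels between genes and for limma 3.58.1 on log2(FPKM + 0.1) and log2(FPKM + 1). Other alternatives were DESeq2 1.42.0, 3 other scalings, 2 other filters, a block on replicate number, a fit of all 12 libraries, genes left out and each library left out. The edgeR and DESeq2 steps were tested on simulated data.

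The text names the top 12 protein-coding calls by fold in each direction (mean log2 CPM of at least 2, groups without overlap), the top 6 calls in each direction by change in CPM, called members of 59 gene lists, and a fixed set of markers and receptor genes. The comparison, members and lists were chosen with earlier results of these data known. Sharing of 64-base words and exons with other genes was computed from a mouse reference annotation of the same build. Replicates are labelled as biological. Some members of the lists are counted but not reported here by name.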

Additional observations from a re-analysis of the deposited data

Results flagged for a closer look

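The dex effect on somatic cells was set against that on germ cells in 1 edgeR fit of all 12 libraries, by a test of the difference itself, for 89 named genes. Of these, 15 differed at an adjusted p of 0.05 or less (adjusted over all genes tested), 12 with a higher and 3 with a lower log2 fold change in somatic cells. Many were named because they changed in somatic cells, so the count is a description.

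The difference (somatic minus germ, log2) was 4.11 for Zbtb16, whose germ mean was 342 CPM in saline and 299 CPM in dex, and 1.55 for Gpx3, whose germ mean was 34.5 CPM in saline and 41.9 CPM in dex. It was 1.37 for Tsc22d3, which stood at 204 CPM in saline and 158 CPM in dex in germ cells. Among other metabolic and regulatory genes the difference was 1.92 for Ppp1r3c, 2.995 for Tmem82, 2.36 for Cebpd, 1.38 for Egln3, 1.89 for Myoc and 0.60 for Per1. It was 1.24 for H19, 0.87 for Col1a1 and 0.79 for Dlk1, which are far more abundant in somatic than in germ cells. With replicate number as a block in edgeR, Egln3 was not called (adjusted p 0.051). With that block set within each treatment, chosen after seeing the data, Tmem82, Egln3, Myoc and Per1 were not called (0.0591, 0.0819, 0.0705 and 0.0546).

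The difference was negative for Mrc1 (-1.91), Ddx4 (-1.27) and Pecam1 (-1.05), and of these Mrc1 alone was called with replicate number as a block (adjusted p 0.0407). With the replicate block set within each treatment, chosen after seeing the data, none of the 3 was called (0.0546, 0.1001 and 0.1101). Ddx4 and Pecam1 were not called within somatic cells, and Ddx4 averaged 1.38 CPM or less there. Its germ mean was 598 CPM in saline and 633 CPM in dex. Mrc1 and Pecam1 were present in both fractions. In germ cells Mrc1 averaged 6.13 CPM in saline and 11.4 CPM in dex, and Pecam1 23.9 and 29.8 CPM. In somatic cells Mrc1 averaged 11.4 CPM in saline and 5.67 CPM in dex, and Pecam1 15.8 and 9.53 CPM. These differences thus hold a higher germ mean with dex as well as a lower somatic one. With 1 library left out, the adjusted p stayed at or under 0.05 for Gpx3, Zbtb16, Tsc22d3, Ppp1r3c, H19 and Tmem82, and it reached 0.145 for Pecam1 and 0.136 for Ddx4.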

How the results depend on the processing

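The 655 somatic calls became 1061 without a filter on low counts (671 higher, 390 lower), 251 with limma on log2(FPKM + 0.1) (217 higher, 34 lower) and 281 on log2(FPKM + 1) (231 higher, 50 lower). They numbered between 354 and 547 with 1 library left out. DESeq2 called 905, library totals 709 and the fit of all 12 libraries 541. Leaving out erythroid and mitochondrial genes gave 659. The 15 differences between somatic and germ cells became 26 with DESeq2 and ranged from 7 to 14 with 1 library left out. The causes were not tested. Same-numbered dex and saline libraries deviated from their group means with correlations of -0.000637, 0.0308 and 0.0188, so the numbers were not taken as pairs, and the replicate block gave 669 calls (603 shared with the main 655) and 13 differences from germ cells (12 higher, 1 lower). Germ and somatic libraries of 1 treatment and number may share a sorted pool, which the labels do not state. In saline the deviations of same-numbered libraries had correlations of 0.0543, 0.0819 and 0.0625, and those of unlike number between -0.0514 and -0.014. In dex the same-numbered ones had -0.00544, -0.0133 and -0.0176, and those of unlike number between -0.0115 and 0.0243. A replicate block within each treatment, chosen after seeing the data, gave 9 differences (9 higher, 0 lower), 8 of them among the 15. Of 205 genes printed from the lists or the naming rule, Hba-a1 left aside, signs turned in 10 results, all of uncalled genes. With library totals Amh stood at -0.01175 and Sox9 at -0.0446, and Sox9 stood at -0.01652 in the fit of all 12 libraries. With 1 library left out, Amh ranged from -0.03446 to 0.1165, Sox9 from -0.0446 to 0.06329, Cyp11a1 from -0.6517 to 0.1581 (0.1056 without dex replicate 2), Cnn1 from -0.02334 to 0.2924 and Nr3c1 from -0.2349 to 0.01647. The depth of these libraries sets a floor of 0.132 to 0.17 CPM, and genes with too few counts for the filter were not tested.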
